A study of Mus musculus with 8 samples.

Results

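The 10 genes described here encode enzymes that carry sulfur from methionine to cysteine and that build or break down glutathione: Mat2a, Mat2b, Ahcy, Mtr, Mtap, Cbs, Cth, Gss, Chac1 and Chac2. They were chosen by their function, by matching Ensembl mouse IDs to symbols in GENCODE M21, and make up 10 of the 21859 gene IDs counted. Earlier results of these data were known when the list was made. RNA was sequenced from PER-M60, which the labels describe only as a line of leukaemia cells. All 8 cultures are of this 1 line. In 4 of them the cells grew in control media, and in the other 4 in media conditioned by osteoclasts, the cells that resorb bone. The labels give no genotype, time in culture or recipe for either medium. They speak of separate cultures but not of separate days or passages, so the p-values below measure the spread between cultures of 1 line, which may be largely technical. In bulk RNA a change in the number of cells of a type cannot be told apart from a change in RNA per cell.

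Total counts ran from 15391754 to 21637966 per culture. A floor of 3 counts, which covers counting error only, stood at 0.139 to 0.195 CPM (counts scaled to a fixed library total). Markers of B-lineage cells were checked first: all 8 listed were present, and their summed level was 4253 to 4279 normalised CPM in the controls and 4501 to 4538 in osteoclast-conditioned medium, with 5 of the 8 called higher and 1 lower, beside 15.7% and 14.8% of all genes tested as described below. Of 12 osteoclast markers, Dcstamp and Ocstamp were at 0, and only 3 passed the filter on low counts (Acp5, Itgb3 and Nfatc1, of which Nfatc1 was called higher and Itgb3 lower). The summed level of the 12 was 128 to 135 normalised CPM in the controls and 139 to 145 in osteoclast-conditioned medium. Nfatc1, which is also expressed in lymphocytes, made up most of this sum and of its difference (95.6 ± 2.69 to 105.8 ± 1.603 normalised CPM), while the 9 markers below the filter had 0 to 51 counts each over all cultures. The part of these marker differences in the results below was not tested.

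Methionine is turned into S-adenosylmethionine, the methyl donor of the cell, by methionine adenosyltransferase. After the methyl group is passed on, the product is split to homocysteine, which is either methylated back to methionine or condensed with serine and cleaved to give cysteine, the route called transsulfuration. Cysteine is the scarce building block of glutathione, the main soluble thiol of the cell, and several genes of this route are known targets of the amino acid response driven by the transcription factor ATF4.

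The widest changes were those of Cth, in cysteine synthesis, and Chac1, in glutathione breakdown. These genes rose by 2.15-fold and 1.85-fold in osteoclast-conditioned medium, while the called genes of the methionine cycle and salvage moved by 13.4% or less: Mat2a, Ahcy and Mtap fell and Mtr rose. Of the 10 genes, 8 passed the filter on low counts, and 6 of these 8 had an adjusted p under 0.05 in edgeR's quasi-likelihood test (Benjamini-Hochberg over 10729 genes), 3 higher and 3 lower. Over all tested genes the share called was 30.5%, with 15.7% higher and 14.8% lower. The median log2 fold change of the 8 was 0.05, against -0.01 over all tested genes, and the median absolute change was 0.11 against 0.09. The normalised CPM of the media did not overlap in 4 of the 8 (Cth, Chac1, Mat2a and Ahcy), against 28.2% of all tested genes. Because the list was made with earlier results of these data known, these counts describe it and do not test it.

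**Figure D1:**
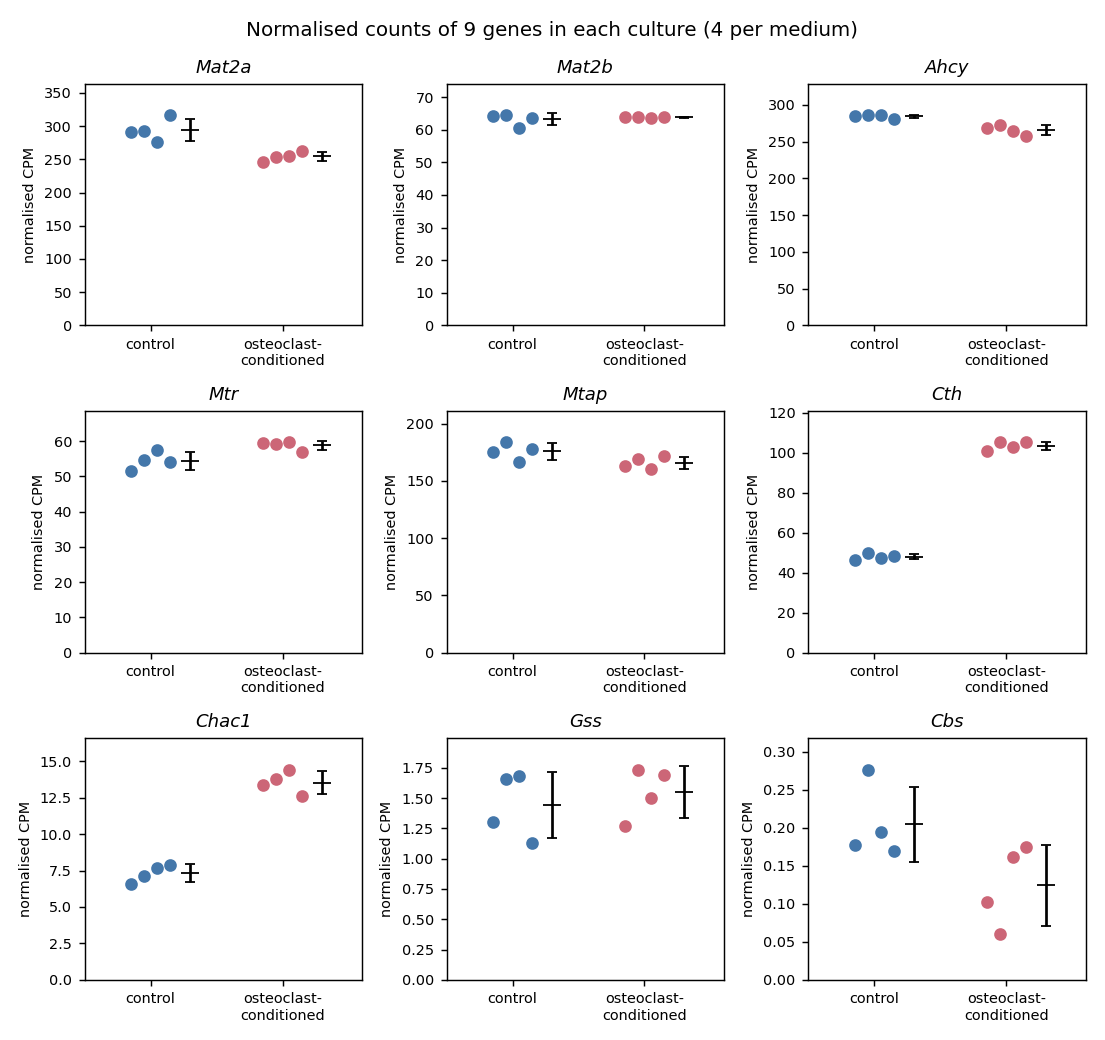
Normalised CPM (vertical axes, from 0) of 9 genes in each culture, with control medium in blue and osteoclast-conditioned medium in red; bars beside the points are the mean and SD of 4 cultures. Cth (46.5 to 49.7 against 101 to 105) and Chac1 (6.57 to 7.90 against 12.6 to 14.4) separate most widely, and Chac2, at 0 in every culture, is not drawn.

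Cth encodes cystathionine gamma-lyase, which releases cysteine from cystathionine in the last step of transsulfuration (ENSMUSG00000028179; chromosome 3, 157894248 to 157925077 in GRCm38, 13 merged exons). Its normalised CPM in control replicates 1 to 4 was 46.5, 49.7, 47.5 and 48.6. In osteoclast-conditioned replicates 1 to 4 it was 101, 105, 103 and 105. Every osteoclast-conditioned culture stood at more than double any control culture. The means were 48.1 ± 1.38 and 103.5 ± 2.16 (SD over 4 cultures), which gave 1.10 as log2 fold change (SE 0.04, 95% interval 1.03 to 1.18, edgeR adjusted p = 4.27e-20). Among all tested genes Cth ranked 2 by p-value and 26 by size of change. Raw counts behind these values were 733 to 1077 per control culture and 1758 to 1981 per osteoclast-conditioned culture. Leaving out any 1 culture gave log2 fold changes from 1.09 to 1.12.

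Cbs encodes cystathionine beta-synthase, which makes the cystathionine that Cth cleaves (ENSMUSG00000024039; chromosome 17, 31608894 to 31637238). It had 3, 6, 3 and 3 counts in control replicates 1 to 4 and 2, 1, 3 and 3 in osteoclast-conditioned replicates 1 to 4. Only control replicate 2 exceeded the floor of 3 counts, and the gene did not pass the filter. A difference between the media was not detectable at this depth. Both enzymes of the route were thus measured in the same libraries, with 10912 counts in all for Cth and 24 for Cbs.

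Among 9032 other tested genes with a mean level of 5 CPM or more, the 3 whose log2 CPM followed that of Cth most closely over the 8 cultures were Slc7a1, a transporter of cationic amino acids (Pearson r = 0.996), Trib3, a pseudokinase (0.995), and Sars, the cytosolic seryl-tRNA synthetase (0.995). The 8 points share their libraries and fall into 2 media, so each correlation takes in the difference between the media. Slc7a1 went from 508 to 697 normalised CPM, Trib3 from 15.4 to 46.3 and Sars from 236 to 303.

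Chac1 encodes a gamma-glutamylcyclotransferase that degrades glutathione in the cytosol, and is a known ATF4 target (ENSMUSG00000027313; chromosome 2, 119351229 to 119354381, 3 merged exons). Its normalised CPM was 6.57, 7.10, 7.70 and 7.90 in control replicates 1 to 4 and 13.4, 13.8, 14.4 and 12.6 in osteoclast-conditioned replicates 1 to 4. The lowest osteoclast-conditioned culture lay well above the highest control culture. The means were 7.32 ± 0.602 and 13.5 ± 0.769 (SD over 4 cultures), which gave 0.89 as log2 fold change (SE 0.08, 95% interval 0.72 to 1.06, edgeR adjusted p = 1.25e-09), which ranked 90 by p-value. The gene rested on 111 to 154 counts per control culture and 216 to 269 per osteoclast-conditioned culture. Its level followed most closely those of Gab2, a signalling adaptor (Pearson r = 0.996), R3hdm2 (0.996) and Wdfy4 (0.996).

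The promoter of Chac1 is shown because it is the only one of the members' promoters searched that held the core of the C/EBP-ATF response element, the site that ATF4 binds with a C/EBP partner. The letters searched were TGATGNAA, on both strands, in RefSeq windows of 300 bases (GRCm38.p6) that run from 250 bases before to 50 after the annotated start. RefSeq windows were matched by symbol for 9 of the 10 genes; the window of Cth was not matched. Of the 9, 1 held the core, against 3.97% of all 32851 windows. The match, TGATGCAA, lies on the strand opposite to the gene from -193 to -186 relative to the start, outside the last 150 bases of the window, in which 0 of the 9 held it. The core of the antioxidant response element (TGACNNNGC, both strands; it shares its first letters TGA with the other motif) was in 0 of the 9, against 12.4% of all windows. The promoter of Mat2a, the member with the largest fall, is given for comparison. Both sequences are the 250 bases before the start on the gene's own strand, 5′ to 3′. Chac1 lies on the plus strand at chr2:119350992-119351241 and Mat2a on the minus strand at chr6:72439557-72439806. Capitals mark the match as it reads on the gene's strand.
Chac1: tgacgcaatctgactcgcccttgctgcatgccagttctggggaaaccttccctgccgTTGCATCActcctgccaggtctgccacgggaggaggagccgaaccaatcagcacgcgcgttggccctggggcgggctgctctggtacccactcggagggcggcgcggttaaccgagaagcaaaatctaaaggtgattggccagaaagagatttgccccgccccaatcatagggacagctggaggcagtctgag
Mat2a: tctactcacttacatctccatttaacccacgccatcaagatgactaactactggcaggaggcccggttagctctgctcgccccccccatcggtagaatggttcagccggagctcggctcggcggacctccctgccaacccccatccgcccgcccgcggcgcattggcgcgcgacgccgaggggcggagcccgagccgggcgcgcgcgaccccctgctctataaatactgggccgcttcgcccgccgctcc
In this window a match is a description of letters, and binding was not measured.

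Chac2 encodes the paralog of Chac1, which degrades glutathione more slowly (ENSMUSG00000020309; chromosome 11, 30976707 to 30986350). It had 0 counts in all 8 cultures. Its whole span, and 100% of its exon bases, lie inside Asb3 on the opposite strand, which had 406 to 577 counts per culture (edgeR adjusted p for Asb3 = 0.439). A count of 0 at such a gene gives no measure of its expression, so the paralogs could not be compared.

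Gss encodes glutathione synthetase, which adds glycine in the last step of glutathione assembly (ENSMUSG00000027610; chromosome 2, 155563181 to 155592810). Its normalised CPM was 1.30, 1.66, 1.68 and 1.13 in control replicates 1 to 4 and 1.27, 1.74, 1.50 and 1.69 in osteoclast-conditioned replicates 1 to 4. The groups overlapped, and the log2 fold change was 0.09 (SE 0.20, 95% interval -0.33 to 0.50, edgeR adjusted p = 0.782). Only 20 to 36 counts per culture lay behind it, and 86.4% of its exon bases lie inside Acss2 on the opposite strand. Acss2 itself fell, from 9.70 ± 0.506 to 7.56 ± 0.659 normalised CPM (edgeR adjusted p = 0.00248). How many Gss reads were lost or shared in the overlap was not tested, so the level of Gss is uncertain. The other 8 members overlap no listed gene.

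Mat2a encodes the catalytic subunit of the methionine adenosyltransferase of non-hepatic cells (ENSMUSG00000053907; chromosome 6, 72432799 to 72439558). Its normalised CPM was 291, 293, 276 and 316 in control replicates 1 to 4 and 247, 253, 256 and 263 in osteoclast-conditioned replicates 1 to 4. All 4 osteoclast-conditioned cultures lay below all controls, although control replicate 4 stood above the rest of its group. The means were 294 ± 16.7 and 255 ± 6.87 (SD, n = 4 each), a fall of 13.4% (log2 fold change -0.21, SE 0.03, edgeR adjusted p = 2.7e-05).

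Mat2b encodes the regulatory subunit of the same enzyme (ENSMUSG00000042032; chromosome 11, 40679314 to 40695203). It had 64.2, 64.4, 60.5 and 63.6 normalised CPM in control replicates 1 to 4 and 63.8, 63.9, 63.6 and 63.8 in osteoclast-conditioned replicates 1 to 4. The osteoclast-conditioned cultures lay within the range of the controls. The log2 fold change was 0.01, with a 95% interval from -0.06 to 0.09 (SE 0.04, edgeR adjusted p = 0.834).

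Ahcy encodes adenosylhomocysteinase, which splits the product of methylation into homocysteine and adenosine (ENSMUSG00000027597; chromosome 2, 155059310 to 155074497). Its normalised CPM was 285, 286, 286 and 281 in control replicates 1 to 4 and 269, 272, 264 and 258 in osteoclast-conditioned replicates 1 to 4. The groups did not overlap, and the fall was small, at 6.52% (log2 fold change -0.10, SE 0.03, 95% interval -0.15 to -0.04, edgeR adjusted p = 0.00557).

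Mtr encodes methionine synthase, which methylates homocysteine back to methionine with a folate-borne methyl group (ENSMUSG00000021311; chromosome 13, 12182712 to 12258113). It stood at 51.5, 54.6, 57.6 and 54.1 normalised CPM in control replicates 1 to 4 and at 59.6, 59.1, 59.6 and 56.9 in osteoclast-conditioned replicates 1 to 4. Control replicate 3 lay above the lowest osteoclast-conditioned culture, so the groups overlapped. The rise was 8.14% (log2 fold change 0.11, SE 0.04, 95% interval 0.03 to 0.20, edgeR adjusted p = 0.0335). This call was lost without control replicate 1 (adjusted p = 0.118), control replicate 4 (0.0609), or osteoclast-conditioned replicates 1 (0.0808), 2 (0.0638) or 3 (0.0908), in each case by edgeR. It was also lost with scaling by total counts only (0.0778), with DESeq2 (0.0787) and with counts thinned to the smallest total (0.0702).

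Mtap encodes methylthioadenosine phosphorylase, which returns the by-product of polyamine synthesis to methionine (ENSMUSG00000062937; chromosome 4, 89137122 to 89181081). Its normalised CPM was 176, 184, 167 and 178 in control replicates 1 to 4 and 163, 169, 161 and 172 in osteoclast-conditioned replicates 1 to 4. Only 2 osteoclast-conditioned cultures lay below all controls. The fall was 5.75% (log2 fold change -0.09, SE 0.03, 95% interval -0.15 to -0.02, edgeR adjusted p = 0.0417). The call was lost without control replicates 1 (adjusted p = 0.0859), 2 (0.116) or 4 (0.107), or without osteoclast-conditioned replicates 1 (0.142), 2 (0.0585) or 3 (0.164), in each case by edgeR. DESeq2 (0.0716), limma-voom (0.0525), edgeR without robust estimation (0.051) and edgeR on thinned counts (0.0609) did not call it either.

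**Figure D2:**
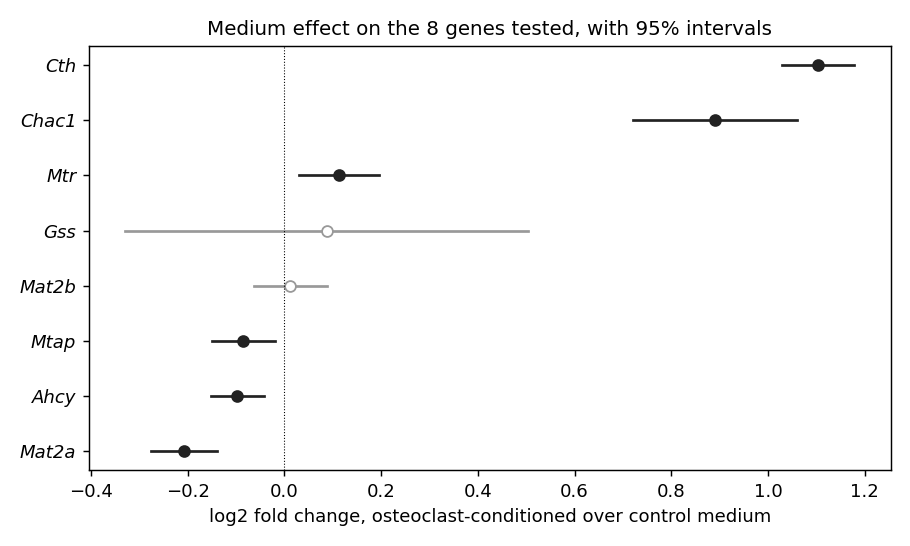
Log2 fold change (horizontal axis, osteoclast-conditioned over control medium) of the 8 genes tested, with 95% intervals from the edgeR fit; filled points had an adjusted p under 0.05 and open points did not. Cth (1.10) and Chac1 (0.89) lie far to the right of the other 6, whose values run from -0.21 to 0.11.

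Levels of different genes were compared per kilobase of merged exon. In control medium the order was Ahcy (101 ± 0.785 normalised CPM per kilobase), Mat2a (65.5 ± 3.71), Mtap (54.5 ± 2.22), Cth (17.2 ± 0.496), Mat2b (12.6 ± 0.368), Mtr (6.39 ± 0.296), Chac1 (4.47 ± 0.368), Gss (0.244 ± 0.0461) and Cbs (0.0273 ± 0.00659; SD, n = 4 each). In osteoclast-conditioned medium it was Ahcy (94.8 ± 2.27), Mat2a (56.8 ± 1.53), Mtap (51.5 ± 1.65), Cth (37.1 ± 0.773), Mat2b (12.8 ± 0.0316), Chac1 (8.28 ± 0.470), Mtr (6.90 ± 0.152), Gss (0.262 ± 0.0358) and Cbs (0.0166 ± 0.00715). No neighbours in either order had overlapping ranges over the 4 cultures, with Cbs at or near the floor. The level of Gss per kilobase is uncertain, because 86.4% of the exon bases in its length lie inside Acss2. Reads lost or shared there were not measured, so its distance from Chac1, Mtr and Cbs is uncertain too. The order differed between the media at 1 place: Chac1 lay below Mtr in all 4 control cultures and above it in all 4 osteoclast-conditioned cultures. Cth moved from a level close to that of Mat2b to one nearer that of Mtap. These lengths merge the exons of all annotated transcripts, and the isoforms used by the cells were not measured.

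**Figure D3:**
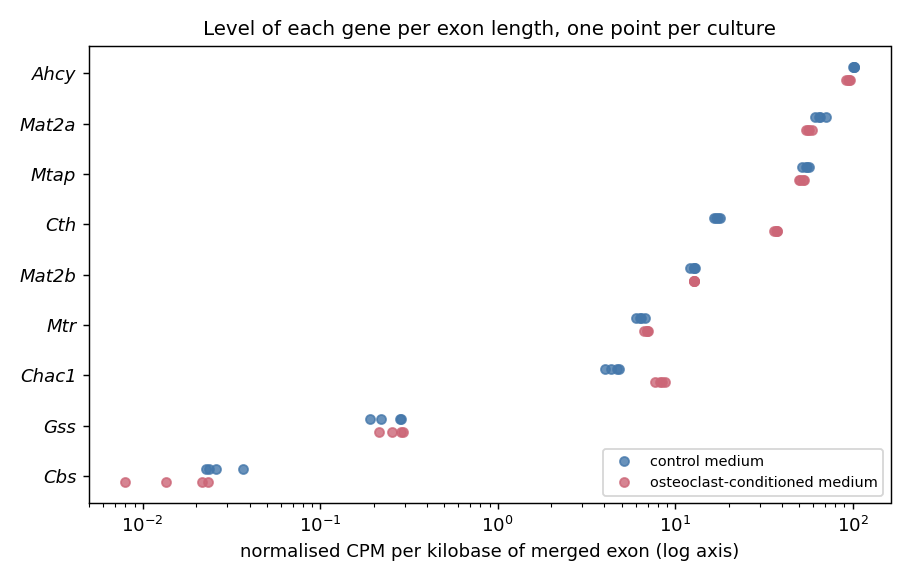
Normalised CPM per kilobase of merged exon on a log axis, 1 point per culture, with control medium in blue and osteoclast-conditioned medium in red. The red points of Cth (mean 37.1) and Chac1 (8.28) lie to the right of their blue points (17.2 and 4.47), and Chac1 passes Mtr (6.39 and 6.90).

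Whether 2 members responded differently was asked with the log2 ratio of their counts within each culture, which needs no scaling between libraries. Of 6 pairs planned, 3 involved Cbs or Chac2 and were not computed; the pair Cth and Chac1 was added after the counts were seen. The Mat2a to Mat2b ratio was 2.18, 2.18, 2.19 and 2.31 (log2) in control replicates 1 to 4 and 1.95, 1.98, 2.01 and 2.04 in osteoclast-conditioned replicates 1 to 4. The groups did not overlap: the catalytic subunit had 4.65 times the counts of the regulatory subunit in the controls and 3.99 times in osteoclast-conditioned medium, a log2 difference of -0.22. By exact permutation, two-sided, p was 0.0286, the smallest that 4 against 4 cultures allow, and p = 0.0571 after Benjamini-Hochberg adjustment over the 4 pairs. Cth to Chac1 did not overlap either, at 2.71 ± 0.111 for the controls and 2.93 ± 0.0951 under osteoclast-conditioned medium (SD over 4 cultures). The log2 difference was 0.22 with exact p = 0.0286 and adjusted p = 0.0571. The groups lay close, with 2.82 in control replicate 1 and 2.83 in osteoclast-conditioned replicate 3. The exact p was 0.114 without osteoclast-conditioned replicate 4. It was 0.0571 without control replicates 3 or 4 or osteoclast-conditioned replicates 1 or 2, and 0.0286 without any 1 of the others. Mtr to Mtap differed by 0.19 (exact p = 0.0571, adjusted 0.0762) and Mat2a to Ahcy by -0.11 (exact p = 0.0857, adjusted 0.0857). Without control replicate 4 the Mat2a to Ahcy difference was -0.07 (exact test, adjusted p = 0.171). None of the 4 exact tests passed 0.05 after adjustment, although 2 of them reached the smallest p the design gives. With only 2 pairs at that p, the adjustment over 4 pairs leaves them at 0.0571, so neither could pass. The adjusted exact test therefore could not decide whether these 2 ratios differ between the media. The pair Cth and Chac1, added after the counts were seen, is counted in this adjustment.

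**Figure D4:**
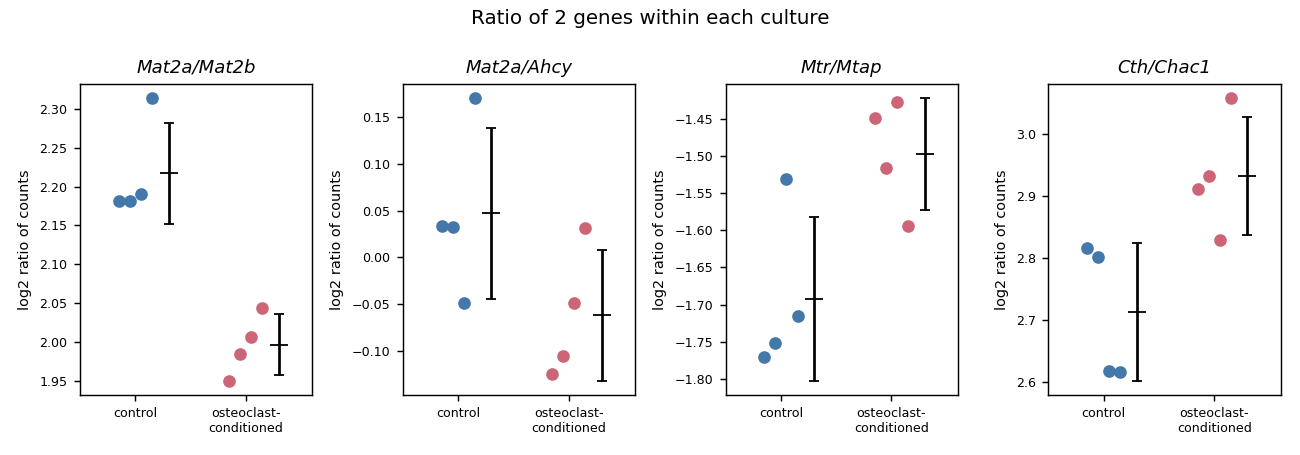
Log2 ratio of the raw counts of 2 genes within each culture, with control medium in blue and osteoclast-conditioned medium in red; bars are the mean and SD of 4 cultures, and each panel has its own vertical scale that does not start at 0. Mat2a/Mat2b (2.18 to 2.31 against 1.95 to 2.04) and Cth/Chac1 (2.62 to 2.82 against 2.83 to 3.06) show no overlap, while the other pairs overlap.

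The rest of the pathway was followed through 66 further genes in 6 lists, of which 44 passed the filter. Over the lists 6 of the 44 were called higher and 10 lower, beside 15.7% higher and 14.8% lower over all tested genes. Their median log2 fold change was -0.03, against -0.01 over all tested genes, and nothing particular to the pathway is read from these counts. Slc7a11 is the transporter subunit of a cystine-glutamate exchanger, which is among several cystine carriers, and Slc3a2 is its heavy chain, which also serves other amino acid transporters. Slc7a11 had 0 counts in every culture and overlaps no listed gene, which allows up to 0.139 to 0.195 CPM. Slc3a2 rose from 285, 290.0, 292 and 280.1 normalised CPM in control replicates 1 to 4 to 397, 383, 391 and 380.5 in osteoclast-conditioned replicates 1 to 4 (0.44 on the log2 scale, SE 0.03, edgeR adjusted p = 1.09e-13). Slc7a11 was singled out after its counts were seen.

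In the methionine salvage and polyamine branch, which begins with decarboxylated S-adenosylmethionine and uses Mtap, 9 of 10 genes were tested and 5 were called lower and 1 higher, where 14.8% and 15.7% of all tested genes were. The falls were those of Mri1, an isomerase of the salvage route (51.2 ± 2.41 to 41.2 ± 0.251 normalised CPM, log2 fold change -0.31), Sms, spermine synthase (-0.26), Amd1, which decarboxylates S-adenosylmethionine (-0.24), Kyat3 (-0.23) and Enoph1 (-0.13). The 6 called genes had edgeR adjusted p of 0.0155 or less. Adi1, the dioxygenase near the end of salvage, went the other way, from 55.9 ± 4.62 to 65.9 ± 1.73 (0.23). Kyat3, Enoph1 and Adi1 were named after their values were seen. The call of Enoph1 was lost without control replicate 4 (edgeR adjusted p = 0.0623) or osteoclast-conditioned replicate 4 (0.0592). Amd1 has a near-identical copy, Amd2 (40 counts in all), between which reads could be split.

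Of the 11 further genes of the methionine cycle and methyl use, 6 were tested, and 1 was called higher and 1 lower, where the shares over all tested genes were 15.7% and 14.8%. Ahcyl1, a relative of Ahcy, fell from 234 ± 7.52 to 216 ± 2.82 normalised CPM (log2 fold change -0.12, edgeR adjusted p = 0.00205). The hepatic subunit Mat1a and the betaine-dependent Bhmt and Bhmt2 were among 4 genes at 0 in all cultures.

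Of 6 tested genes that consume cysteine or handle sulfide, 2 were called higher and 1 lower, where the shares over all tested genes were 15.7% and 14.8%. Ethe1, the mitochondrial persulfide dioxygenase, rose from 13.7 ± 1.09 to 19.3 ± 0.819 normalised CPM (log2 fold change 0.50, edgeR adjusted p = 1.37e-06). Csad, which makes the taurine precursor from cysteine sulfinate, fell from 7.32 ± 0.721 to 4.97 ± 0.584 (-0.58, edgeR adjusted p = 0.00014); 21.9% of its exon bases lie inside Zfp740. Mpst, a sulfurtransferase, rose by 0.13 on the log2 scale (edgeR adjusted p = 0.026), a call lost without control replicate 2 (0.0508), osteoclast-conditioned replicate 2 (0.0618) or osteoclast-conditioned replicate 3 (0.0665). It was also lost with scaling by total counts only (0.0598), DESeq2 (0.0801) and thinned counts (0.0781).

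The genes that build glutathione before Gss did not pass the threshold. Gclc and Gclm, the catalytic and modifier subunits of glutamate-cysteine ligase, which sets the rate of glutathione synthesis, went from 117 ± 1.86 to 124 ± 6.17 and from 55.9 ± 2.73 to 59.0 ± 2.41 normalised CPM. Their log2 fold changes were 0.09 (95% interval 0.02 to 0.16, edgeR adjusted p = 0.0529) and 0.08 (-0.01 to 0.16, edgeR adjusted p = 0.174); both were named after their values were seen. Gclc passed without control replicate 1 (edgeR adjusted p = 0.0445) or osteoclast-conditioned replicate 1 (0.00849). It also passed with either other filter on low counts (0.0436 and 0.0441), with thinned counts (0.0253) and without the 10 genes with the most counts (0.0473). In the list of assembly and gamma-glutamyl turnover 1 of 7 tested genes was called, beside 30.5% of all tested genes: Ggt7, of the gamma-glutamyltransferase family, was lower (2.66 ± 0.484 to 1.59 ± 0.508 normalised CPM, edgeR adjusted p = 0.00411), with overlapping groups and 306 counts in all. Of the exon bases of Ggt7, 6.04% lie inside Acss2 on the opposite strand, which also fell. The part of this overlap in the call was not tested.

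Glutathione redox and conjugation genes were the largest list, and 3 of its 15 tested genes were called, where 30.5% of all tested genes were. Gstt2 (log2 fold change -0.35, edgeR adjusted p = 0.015) and Glrx5, a mitochondrial glutaredoxin (-0.15, edgeR adjusted p = 0.00454), were lower, and Gsr, which regenerates reduced glutathione, was higher (0.13, edgeR adjusted p = 0.0306). Gstt2 lost its call without control replicates 1 (0.0607) or 3 (0.055) or osteoclast-conditioned replicates 2 (0.0626) or 3 (0.0588). Gsr lost it without control replicate 3 (0.0801) or osteoclast-conditioned replicates 2 (0.0645) or 3 (0.109), by edgeR in each case. Scaling by total counts only (0.0728) and DESeq2 (0.0805) did not call Gsr either.

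**Figure D5:**
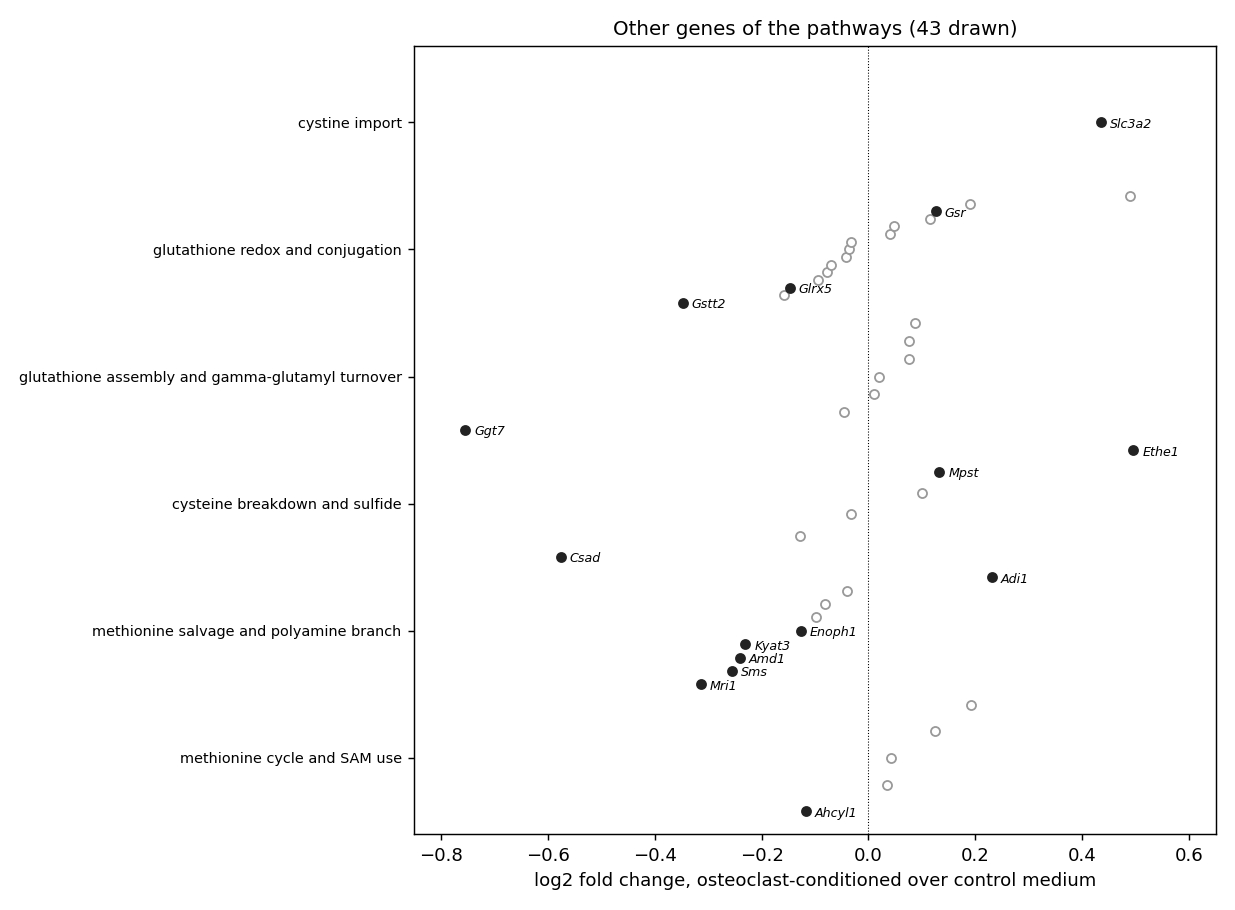
Log2 fold change (horizontal axis, osteoclast-conditioned over control medium) of 43 of the 44 tested genes in 6 lists; filled points, labelled by symbol, had an edgeR adjusted p under 0.05, and open points did not. In the salvage and polyamine list 5 of the 6 filled points lie left of 0, and Slc3a2 (0.44) and Ethe1 (0.50) lie farthest right among filled points.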

How the data were processed

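The authors deposited unnormalized counts, all whole numbers, by Ensembl ID for 8 cultures. STAR 2.7.5a, featureCounts 2.0.1 and the build mm10 are named, with no role or order, per the submitters' processing notes; the annotation, the strand setting, the use of molecular barcodes and the treatment of reads in overlapping genes are not given in the sources used here. Of 21859 IDs, 21817 matched GENCODE M21 (GRCm38). Genes passing filterByExpr (10729) were scaled by TMM and tested with edgeR 4.0.16 (glmQLFit, robust, and glmQLFTest) in R 4.3.3, with medium as the term, all 8 samples and Benjamini-Hochberg adjustment over all tested genes. Normalised CPM is TMM-scaled. The fit was tested on simulated data. Ratios used counts plus 0.5 and the exact permutation test (70 assignments of the samples). Promoter windows came from RefSeq. All 10 members were reported whatever their result, and of each list the up to 3 called genes with the largest change, of which 1 is not reported here. Likeness used log2 CPM with a prior count of 2 for the 2 members with the smallest p. The members and lists were chosen with earlier results of these data known. Alternatives were other scalings, filters, thresholds, thinning, DESeq2 1.42.0, limma-voom (limma 3.58.1), a replicate block and leaving out each culture.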

Additional observations from a re-analysis of the deposited data

Results flagged for a closer look

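In 50 groups of 4 cultures (the tested members, the 13 pathway genes taken by the naming rule and the 4 ratios, in each medium), the gap of the highest or lowest culture to its nearest neighbour was divided by the range of the group. In 3 groups the share was above Dixon's 95% critical value, where chance gives about 1 in 20, or 2.5 of 50. The log2 ratio of Mat2a to Mat2b was 2.314 in control replicate 4 and 2.18 to 2.19 in the other control cultures. Ahcyl1 was highest in osteoclast-conditioned replicate 2, at 220.0 normalised CPM against 214 to 215. Amd1 was lowest in osteoclast-conditioned replicate 3, at 96.8 normalised CPM against 103 to 104.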

How the results depend on the processing

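Cth and Chac1 were called higher under all 21 alternatives, with log2 fold changes from 1.08 to 1.12 and from 0.85 to 0.93. Against a 1.2-fold change the calls of Mat2a (-0.21), Ahcy (-0.10), Mtr (0.11) and Mtap (-0.0854) were lost. Each of these estimates is itself smaller than a 1.2-fold change, so that test could not call them. Under it 0 members were called lower, and 2 of the further pathway genes were called higher and 1 lower. Of all 10729 genes, 227 were called, 70.9% of them higher. Mat2a and Ahcy kept their call under every other alternative. At an adjusted p under 0.01 Mtr (0.11) and Mtap (-0.0854) were lost. Mtr was also lost with total counts only (0.0916), DESeq2 (0.11) and thinned counts (0.10), and Mtap with DESeq2 (-0.0849), limma-voom (-0.0856), no robust estimation (-0.0854) and thinned counts (-0.0801). Leaving out 1 culture gave 0.0918 to 0.14 for Mtr, -0.11 to -0.0632 for Mtap, -0.0051 to 0.0229 for Mat2b and -0.0092 to 0.18 for Gss, whose sign turned without control replicate 4 (-0.0092); Mat2b turned without control replicate 3 (-0.0051), with total counts only (-0.0092) and with thinned counts (-0.00073). The cause of these changes was not tested. Total counts only lowered the median of all genes by 0.02 and moved the share of calls that were higher from 51.6% to 40.7%. In the last 150 bases 0 member promoters held TGATGNAA. With the replicate block 3 members were called higher and 3 lower, the same calls as without it. In that fit 3446 of all 10729 genes were called, 51.0% of them higher. Mtr was at edgeR adjusted p = 0.0315 and Mtap at 0.0259 with the block. Same-numbered cultures had a mean correlation of deviations of 0.037 (-0.051 to 0.143). Of 8 cultures, 3 correlated best with their own number, so the numbers are not taken as pairs. For the ratios the block allows no exact p under 0.125. Cbs had 1 to 6 counts per culture, near the floor of 3, and Slc7a11 had 0; for Gss, low counts and the overlap with Acss2 cannot be told apart.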

Other observations

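The spread between cultures is given beside that of counting alone, over 4 cultures per medium and with no test of either against the other. For Cth the coefficient of variation was 2.88% over the controls and 2.08% over the osteoclast-conditioned cultures, where counting alone gives 3.40% and 2.32%. For Chac1 it was 8.23% and 5.67%, where counting gives 8.74% and 6.40%. Mat2a varied by 5.66% and 2.699%, where counting gives 1.38% and 1.48%. Mtap varied by 4.06% and 3.20%, where counting gives 1.78% and 1.83%. Ahcy varied by 0.775% and 2.39% (counting 1.40% and 1.44%), Mtr by 4.64% and 2.21% (counting 3.20% and 3.07%), and Gss by 18.9% and 13.7% (counting 19.6% and 18.98%). Mat2b varied by 2.91% and 0.248%, where counting gives 2.97% and 2.95%.

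Among the 22 further pathway genes below the filter, 12 had 0 counts in all cultures. Dpep1, Dpep2, Gpx8 and Gsto1 are among them, and between 99.98% and 100% of their exon bases lie inside other listed genes, so those counts of 0 give no measure of expression.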
